A study of Mus musculus with 12 samples.

Results

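Endothelial cells line the blood vessels of the skin, and their transcripts are measured here through 10 genes that mark them: Pecam1, Cdh5, Egfl7, Sox17, Kdr, Flt1, Tek, Tie1, Emcn and Eng. The genes were taken by symbol from a list of endothelial markers, and 10 of 10 were present among the 14533 genes of the count table. RNA came from scrapings of dorsal skin that was snap-frozen, non-lesional and untreated, taken from C57BL/6 mice, with 1 library per mouse. WT mice (6) were Pparg flox/flox without Cre (Cytokeratin14 promoter-driven Cre-/-), and Pparg-/-epi mice (6) were Pparg flox/flox with 1 copy of the transgene (Cre+/-). Both groups were 8 to 13 weeks of age, with 3 females and 3 males among the WT mice and 4 females and 2 males among the Pparg-/-epi mice. The Cre is driven by a promoter of basal keratinocytes, so the deletion was aimed at the epidermis and its appendages and not at vessels. Scraping with a curette went on until pink tissue showed that the superficial vessels had been reached, so a scraping holds epidermis, hair follicle tissue and some dermis, in amounts that were not recorded.

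Vessels in the skin lie in the dermis and around the hair follicles, and the epidermis itself has none. Endothelial cells hold together through PECAM1 and VE-cadherin (Cdh5). They receive growth signals through VEGF receptor 2 (Kdr), while VEGF receptor 1 (Flt1) binds the same ligand and largely acts as a decoy, and the angiopoietin receptor Tek (Tie2) and its partner Tie1 steady mature vessels. Col1a1, the main collagen chain made by dermal fibroblasts, and the keratins of the inner root sheath and hair shaft served as RNA markers of dermis and follicle tissue. How far these RNA levels follow the amount of either tissue in a scraping was not tested.

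Total counts ranged from 10120840 to 16947632 in the WT libraries and from 11272135 to 18851255 in the Pparg-/-epi libraries. RNA integrity numbers (RIN, where 10.0 is intact RNA) ranged from 5.9 to 8.6 and from 5.7 to 8.6. Mouse names hold a number that the labels do not explain, called here the name number. It was 226 for WT replicates 3 to 6, 217 for WT replicate 1 and 222 for WT replicate 2, while the Pparg-/-epi mice had the numbers 192, 195, 222 and 225, so genotype and name number largely cannot be told apart. The library of WT replicate 5 held 10006 summed CPM, the counts of a gene per TMM-scaled library total, of 7 skeletal muscle genes, against at most 413 in the other 11 mice. Pparg, the targeted gene, was at 0.53 to 14.3 CPM in WT and 1.33 to 6.49 CPM in Pparg-/-epi mice. Counts over the whole gene also take in exons outside the deleted part and cells without Cre, so they do not check the labels.

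The 250 bases before the annotated start were available for 7 of the 10 genes (RefSeq, GRCm38.p6), and not for Pecam1, Cdh5 and Sox17. Those of 3 genes are shown, in the direction of transcription, because Emcn was one of 2 genes past the test below, Flt1 had the largest difference, and the window of Tie1 held the most ETS letters. Capitals mark GGAAG or its reverse complement CTTCC, the core letters of ETS factors, which are known regulators of endothelial genes.
Emcn (chr3:137340828-137341077, + strand): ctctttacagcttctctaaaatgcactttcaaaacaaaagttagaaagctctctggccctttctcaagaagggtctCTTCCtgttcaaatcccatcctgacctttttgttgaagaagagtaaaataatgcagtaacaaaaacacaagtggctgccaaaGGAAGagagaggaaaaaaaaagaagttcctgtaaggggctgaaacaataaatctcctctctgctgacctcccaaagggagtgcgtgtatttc
Flt1 (chr5:147726012-147726261, - strand): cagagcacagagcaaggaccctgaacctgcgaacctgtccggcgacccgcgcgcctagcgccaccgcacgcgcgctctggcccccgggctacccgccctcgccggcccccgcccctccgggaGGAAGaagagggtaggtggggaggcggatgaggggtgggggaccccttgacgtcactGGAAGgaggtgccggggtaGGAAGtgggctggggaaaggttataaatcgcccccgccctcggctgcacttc
Tie1 (chr4:118489850-118490099, - strand): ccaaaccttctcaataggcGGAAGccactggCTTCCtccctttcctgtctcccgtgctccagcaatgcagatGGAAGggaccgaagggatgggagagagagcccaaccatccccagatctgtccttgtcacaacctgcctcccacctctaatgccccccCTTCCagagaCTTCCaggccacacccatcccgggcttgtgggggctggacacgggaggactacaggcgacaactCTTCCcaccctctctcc
The ETS letters were present 2 times for Emcn, 3 times for Flt1 and 6 times for Tie1. They were found on either strand in 7 of the 9 windows of these 7 genes, and in 6 of the genes, the exception being Tek. They were also in 67.9% of the 13983 windows of all listed genes, so they are common letters. AACAAT, the core letters of SOX factors such as Sox17, was in 2 of the 9 windows, from Emcn and Tek, and in 5.5% of all windows. AACAGGAA, letters shared by FOX and ETS factors, was in 2 of the 9 windows, from Egfl7 and Emcn, and in 1.9% of all windows. AGGTCA, the letters that nuclear receptors such as PPARγ recognise, was in 2 of the 9, from the same pair of genes, and in 11.0% of all. The searches for ETS and for FOX and ETS letters share GGAA. These matches are descriptions of letters and not binding sites.

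All 10 genes were low in the scrapings. Their counts together made up 0.00107% to 0.0278% of a library. On a per-length scale, Pecam1 had the highest mean level over the 12 mice, 7.72 RPKM ± 7.12 (SD, n = 12), and Sox17, a transcription factor of arterial endothelium, the lowest, 0.64 RPKM ± 0.37. Between them, in falling order, came Eng (4.71 RPKM), Egfl7 (3.94 RPKM), Emcn (3.89 RPKM), Cdh5 (3.53 RPKM), Flt1 (2.63 RPKM), Kdr (1.51 RPKM), Tie1 (1.40 RPKM) and Tek (1.12 RPKM). The SD over mice of each difference between neighbours was larger than its mean, and the order was not tested. The higher gene exceeded its neighbour in 6 to 8 of 12 mice, except for Flt1 over Kdr, in 10, and Tie1 over Tek. The level of Tie1 exceeded that of Tek in 11 of 12 mice, by 0.28 RPKM on average with an SD of 0.45. Pecam1 ranked first in 8 mice, and Sox17 ranked last in 6. For comparison, the mean level of Col1a1 was 832 RPKM.

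Levels within each genotype ran over a wide range, and much the same mice were high or low for each endothelial gene, as the plot of each gene by mouse shows. The summed level of the 10 genes was 10.6, 38.0 and 173 CPM (lowest, median, highest) in WT mice and 56.0, 155 and 254 CPM in Pparg-/-epi mice. WT replicate 2 was the highest WT mouse, and WT replicates 3, 4 and 6 were the lowest of all 12 mice. Pparg-/-epi replicates 7, 8 and 9, females of 12 or 13 weeks, were the highest of the 12. Replicates 10 and 12, the 2 males of that group, at 8 and 10 weeks, lay below both WT replicate 1 and WT replicate 2. Replicate 11, a female of 12 weeks, lay between them at 100 CPM.

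**Figure D1:**
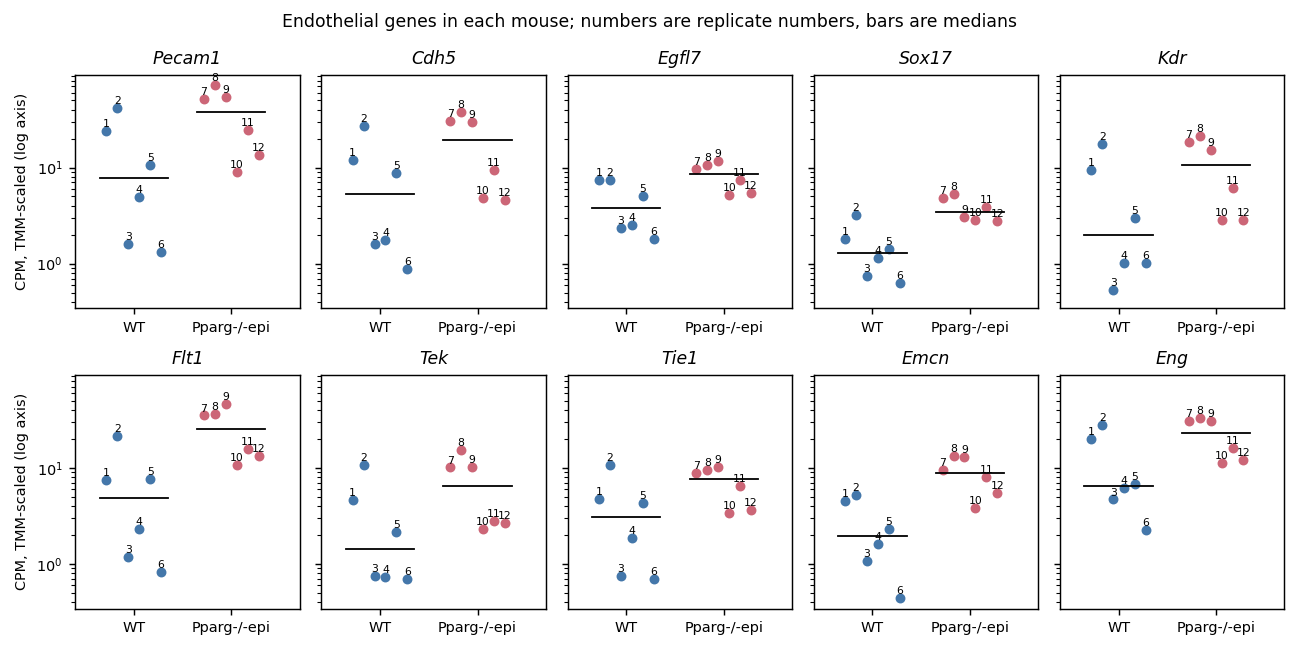
TMM-scaled CPM (log axis) of each endothelial gene in 6 WT mice (blue) and 6 Pparg-/-epi mice (red), each point 1 mouse with its replicate number and each bar a group median. WT replicate 2 overlaps the Pparg-/-epi mice for every gene, while WT replicates 3, 4 and 6 lie low throughout, with Kdr between 0.53 and 1.01 CPM.

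Of the junction genes, Pecam1 (chr11:106654213-106715281, mm10) was at 1.32, 7.79 and 41.3 CPM (lowest, median, highest) in WT mice and at 8.90, 38.2 and 72.1 CPM in Pparg-/-epi mice. WT replicates 1 and 2 lay within the Pparg-/-epi range, and Pparg-/-epi replicate 10 lay below WT replicate 5, so the groups overlapped. The log2 fold change (Pparg-/-epi over WT) of Pecam1 was 1.42 (SE 0.78, edgeR quasi-likelihood adjusted p = 0.250). Cdh5 (chr8:104101625-104144502) was at 0.88, 5.26 and 27.3 CPM in WT and at 4.55, 19.5 and 37.6 CPM in Pparg-/-epi mice. Only 4 of 6 Pparg-/-epi mice lay above the WT median for Cdh5, against 6 of 6 for each of the other 9 genes. For Cdh5 the log2 fold change was 1.15 (SE 0.81, edgeR adjusted p = 0.379).

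Of the VEGF receptors, Kdr (chr5:75933270-75978428) was at 0.53, 2.01 and 17.6 CPM in WT and at 2.83, 10.7 and 21.2 CPM in Pparg-/-epi mice. The highest WT mouse had 33.0 times the Kdr level of the lowest, whose value rests on 5 counts, and the groups overlapped. The log2 fold change of Kdr was 1.02 (SE 0.81, edgeR adjusted p = 0.446). Flt1 (chr5:147562196-147725988) was at 0.82, 4.85 and 21.2 CPM in WT and at 10.7, 25.3 and 46.6 CPM in Pparg-/-epi mice. All 6 Pparg-/-epi mice exceeded every WT mouse except WT replicate 2 for Flt1. Its log2 fold change was 1.94 (SE 0.69), the largest of the 10, with an edgeR adjusted p of 0.0784. The adjusted p of Flt1 was 0.0326 by edgeR's likelihood ratio test, 0.0398 by DESeq2 and 0.00810 without WT replicate 2, so its call depends on the test and on 1 mouse. Flt1 also took a larger part of the summed endothelial CPM in Pparg-/-epi mice, 14.2% to 20.7% with a median of 18.0%, than in WT mice, 7.69% to 14.7% with a median of 8.63%, and only WT replicate 5 reached into the range of the other group. This share was looked at after the values were seen and has no test.

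Of the angiopoietin receptors, Tek (chr4:94739289-94874976) was at 0.69, 1.44 and 10.7 CPM in WT and at 2.33, 6.45 and 15.5 CPM in Pparg-/-epi mice. WT replicates 1 and 2 lay above Pparg-/-epi replicates 10, 11 and 12. Its log2 fold change was 1.14 (SE 0.74, edgeR adjusted p = 0.338), and without WT replicate 2 it was 2.01 with an adjusted p of 0.0479. Tie1 (chr4:118471191-118489849) was at 0.69, 3.07 and 10.6 CPM in WT and at 3.41, 7.63 and 10.3 CPM in Pparg-/-epi mice. For Tie1 the highest of the 12 mice was a WT mouse, replicate 2. Tie1 had a log2 fold change of 0.87 (SE 0.59, edgeR adjusted p = 0.360).

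Eng (chr2:32646595-32682669), a co-receptor for TGF-β and BMP ligands on endothelium, was at 2.27, 6.42 and 28.1 CPM in WT and at 11.1, 23.3 and 33.2 CPM in Pparg-/-epi mice. Only WT replicates 1 and 2 lay within the Pparg-/-epi range. Eng had a log2 fold change of 0.97 (SE 0.55, edgeR adjusted p = 0.261). In the annotation an exon of Fpgs, on the opposite strand, overlaps exons of Eng, and strand use in counting is not given in the sources used here, so reads from the overlap may belong to either gene. Egfl7 (chr2:26581056-26592682), a secreted protein that endothelial cells use to shape vessels, varied least of the 10 over all mice, 6.44-fold. It was at 1.83, 3.81 and 7.41 CPM in WT and at 5.16, 8.64 and 11.7 CPM in Pparg-/-epi mice. In WT mice alone its levels spanned 4.06-fold, and its log2 fold change was 0.91 (SE 0.38, edgeR adjusted p = 0.125). Egfl7 shares exons with the readthrough gene model Gm20532, in whose transcripts 2.93% of the 75-base stretches of Egfl7 also occur.

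Genes were called altered when the adjusted p was under 0.05 and the log2 difference 0.6 or more in size. The 2 that met this were Sox17 and Emcn, both higher in Pparg-/-epi mice. Sox17 (chr1:4490928-4497354) was at 0.63, 1.28 and 3.18 CPM in WT and at 2.75, 3.46 and 5.28 CPM in Pparg-/-epi mice. WT replicate 2 lay within the Pparg-/-epi range, and all 6 Pparg-/-epi mice exceeded the other 5 WT mice. Its log2 fold change was 1.32 (SE 0.37, edgeR adjusted p = 0.0312), from 7 to 60 counts in the WT libraries and 32 to 92 in the Pparg-/-epi libraries. Emcn (chr3:137341078-137431069), a sialomucin of capillary and venous endothelium, was at 0.44, 1.95 and 5.20 CPM in WT and at 3.83, 8.76 and 13.3 CPM in Pparg-/-epi mice. For Emcn, WT replicates 1 and 2 exceeded Pparg-/-epi replicate 10, and the other 4 WT mice lay below every Pparg-/-epi mouse. Its log2 fold change was 1.79 (SE 0.52, edgeR adjusted p = 0.0340). Both calls lay near the threshold and were lost in most fits with 1 mouse fewer. When mice were left out singly, 12 times, Sox17 was still called 4 times and Emcn 5 times. The edgeR adjusted p reached 0.0753 and 0.0804, and the log2 fold changes ran from 1.16 to 1.69 and from 1.57 to 2.13. Sox17 lost the call without WT replicate 3 (adjusted p = 0.0595), 4 (0.0704), 5 (0.0589) or 6 (0.0564), or Pparg-/-epi replicate 7 (0.0753), 8 (0.0749), 9 (0.0524) or 11 (0.0536). Emcn lost it without WT replicate 3 (0.0669), 4 (0.0772) or 5 (0.0645), or Pparg-/-epi replicate 7 (0.0682), 8 (0.0764), 9 (0.0804) or 11 (0.0530).

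In all, 2 of 10 endothelial genes were altered, beside 10.3% of all genes in either direction and 5.19% of all genes altered and higher. All 10 log2 fold changes were above 0, as were 7046 of the 14533 genes tested, and the median was 1.14 against -0.01 over all genes. These 10 genes varied together across mice and are not 10 independent measurements of the difference. For none of them did the WT and Pparg-/-epi ranges separate, against 7.9% of all genes. In bulk RNA, more endothelial cells in a scraping and more RNA of these genes per cell cannot be told apart. No gene of the 10 had a genotype difference that differed between females and males past the threshold (edgeR interaction term, adjusted p 0.895 or higher), with few mice of each sex. In males alone the differences of Pecam1, Cdh5, Kdr and Tek were below 0 (log2 -0.14, -0.70, -0.63 and -0.04, SE 0.72 to 0.98). The Pparg-/-epi males were replicates 10 and 12.

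The size of the difference depended on which WT mice were used, as the plot of fold changes against different WT mice shows. This division by name number was made after the values were seen. The 4 WT mice of number 226 were 12 or 13 weeks old, with RIN of 5.9 to 7.1. The other 2 were 8 and 9 weeks old, with RIN of 7.4 and 8.6. Name number, age and RIN therefore cannot be told apart in this division. With age as a covariate in the fit on all 12 mice, 2 of 10 genes were altered. The 10 log2 fold changes then ran from 1.05 (Egfl7) to 2.29 (Flt1). Against the 4 WT mice of name number 226, 10 of 10 endothelial genes were altered and higher, beside 12.5% of all genes, with log2 fold changes from 1.497 (Egfl7) to 3.13 (Flt1). Against the 2 other WT mice, 0 of 10 were altered, beside 2.68% of all genes (edgeR, 0 of 10 at an unadjusted p under 0.05), with adjusted p of 0.336 or higher, and Cdh5, Kdr, Tek, Tie1 and Eng lay between -0.0025 and -0.26 on the log2 scale. Emcn and Flt1 kept the largest values there, log2 0.87 (SE 0.46) and 0.89 (SE 0.62). Only name number 222 was shared by the groups, with 1 WT and 1 Pparg-/-epi mouse. Its WT mouse, replicate 2, had the higher level of all 10 genes, from 1.13 times (Sox17) to 6.21 times (Kdr) the level of its Pparg-/-epi mouse, replicate 10. The 2 mice also differed in sex and RIN: replicate 2 was a female of 9 weeks with RIN of 8.6, and replicate 10 a male of 8 weeks with RIN of 7.7. With name number as a block, a fit in which the genotype difference rests on those 2 mice, 10 of 10 log2 fold changes were below 0, from -0.17 (Sox17) to -2.63 (Kdr), and 0 of 10 genes were altered, beside 1.64% of all genes (edgeR, adjusted p 0.130 or higher, 3 at an unadjusted p under 0.05).

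**Figure D2:**
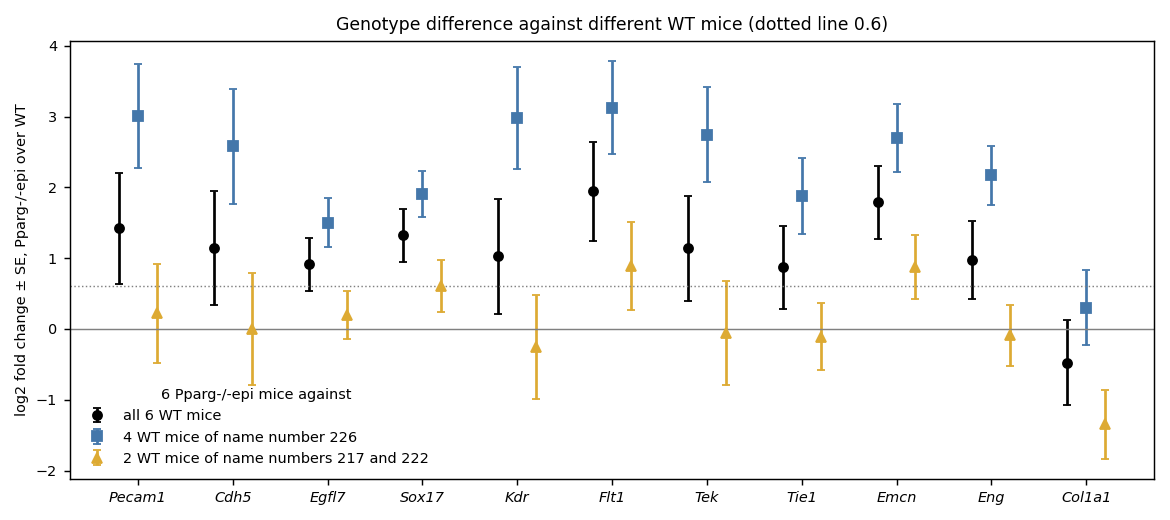
Log2 fold change ± SE of each endothelial gene and of Col1a1, Pparg-/-epi over WT, for 6 Pparg-/-epi mice against all 6 WT mice (black), the 4 of name number 226 (blue) and the 2 of numbers 217 and 222 (yellow); the dotted line is the 0.6 threshold. Every endothelial gene is highest against the 226 mice, and 5 of them are at or below 0 against the other pair, where Flt1 and Emcn stay near 0.9.

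The levels also moved with RNA integrity. Over 12 mice the Pearson r between RIN and log2 CPM ran from 0.59 (Emcn) to 0.77 (Tek), with permutation p from 0.00488 to 0.0436 and Spearman rho from 0.52 to 0.69 (permutation p from 0.0151 to 0.0846). After adjustment over all genes p was 0.0708 to 0.134, and 0 of the 10 genes passed, beside 0% of all genes, while 10 of 10 and 34.6% of all genes had an unadjusted p under 0.05. Pparg-/-epi replicate 11 was farthest from the median RIN, and WT replicates 2 and 5 and Pparg-/-epi replicate 7 were tied behind it. Without replicate 11 and any one of these, r lay between 0.72 and 0.93. Within the WT mice the median r was 0.74. Replicate 2 was farthest from the WT median and replicates 1 and 5 were tied, so the median r was -0.10 without replicates 1 and 2 and 0.86 without replicates 2 and 5. Within the Pparg-/-epi mice it was 0.50, and 0.69 without replicates 7 and 11. In a fit with genotype and RIN together, Kdr (log2 change of 0.96 per RIN unit), Tek (1.00) and Eng (0.68) rose with RIN (edgeR adjusted p = 0.0464, 0.0385 and 0.0424), beside 7.64% of all genes. Sox17 and Emcn remained altered by genotype in that fit. Among mice with RIN of 7.0 or more (3 WT, 5 Pparg-/-epi), 0 of 10 genes were altered (edgeR, 1 at an unadjusted p under 0.05), with Sox17 at log2 0.88 (adjusted p = 0.279) and Emcn at 1.26 (0.223). The part of RIN in the genotype difference was not tested beyond these fits. With the total count per library r was 0.27 to 0.59, and 0 of 10 genes passed, beside 5.67% of all genes.

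The endothelial genes were then set beside Col1a1 and the follicle keratins in each mouse. Col1a1 was at 423, 3486 and 13798 CPM (lowest, median, highest) in WT and at 1983, 3485 and 4673 CPM in Pparg-/-epi mice. It was not altered by genotype (log2 fold change -0.48, SE 0.60, edgeR adjusted p = 0.658), and the fold change was 0.27 without WT replicate 1, whose Col1a1 level was the highest. The mean of log2 CPM, which gives that mouse less weight, was higher in Pparg-/-epi mice by 0.19. The summed CPM of 22 follicle keratins was 43.3, 188 and 1257 in WT and 127, 320 and 3117 in Pparg-/-epi mice, with mean log2 CPM higher in the latter by 1.27 (two-sided exact permutation p = 0.240, n = 6 per group). None of the 22 keratins was altered by edgeR or DESeq2, and 1 had an unadjusted p under 0.05.

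The order of the mice by endothelial genes was not their order by Col1a1. WT replicate 1 held the most Col1a1 and ranked 6th of 12 by summed endothelial CPM. WT replicate 3 ranked 4th by Col1a1 and 11th by endothelial genes, and Pparg-/-epi replicate 9 ranked 9th by Col1a1 and 2nd by endothelial genes. This holds for Col1a1 and not for collagen in general. With Col3a1 the order of these mice was reversed, at 1370 CPM in WT replicate 3 and 2525 CPM in Pparg-/-epi replicate 9. Per 1000 Col1a1 counts there were 3.80, 14.8 and 58.4 counts of the 10 endothelial genes (lowest, median, highest) in WT mice and 12.0, 53.8 and 97.8 in Pparg-/-epi mice, so the ratio of endothelial to Col1a1 counts spanned 25.8-fold over the 12 mice. WT replicate 2, at 58.4, lay beside Pparg-/-epi replicate 7, at 57.1, and Pparg-/-epi replicates 10 and 12, at 12.0 and 17.9, lay among the WT mice of name number 226.

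Over 12 mice, r between log2 CPM of Col1a1 and of each endothelial gene ran from 0.33 (Sox17) to 0.49 (Eng), with a median of 0.41. The permutation p was 0.103 to 0.295, and between 5.18% and 14.4% of all genes had as high an r. None of the 10 genes passed, before or after adjustment over all genes, beside 0% of all genes after adjustment and 3.65% before. Spearman rho was -0.07 to 0.12 (permutation p 0.718 or higher). The relation rested on WT replicate 6, the mouse with the least Col1a1: the median r was 0.05 without it and 0.48 without WT replicate 1, the mouse with the most. Without both r was -0.06 to 0.12. Within the WT mice the median r was 0.60 (exact permutation p 0.0736 to 0.304, rho 0.37 to 0.71), and 0.11 without the same 2 mice. Within the Pparg-/-epi mice it was -0.33 (exact p 0.242 to 0.767, rho -0.66 to -0.43), and -0.76 without replicates 9 and 11. The direction with Col1a1 was thus opposite in the groups, a difference that was not tested. With Col3a1, the other main fibrillar collagen of the dermis, in place of Col1a1 the median r over 12 mice was 0.73. Its r within each group was not computed. Pparg-/-epi replicates 7, 8 and 9, the highest in endothelial genes, held 3611, 3914 and 2525 CPM of Col3a1. Replicates 10, 11 and 12 held 2228, 1615 and 1952 CPM, so the opposite direction in this group was not seen with Col3a1.

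With the follicle keratins r over 12 mice ran from 0.41 (Emcn) to 0.63 (Tek), with a median of 0.49. The permutation p was 0.0295 to 0.181 and rho 0.45 to 0.62 (permutation p 0.0344 to 0.141). Adjusted over all genes p was 0.342 to 0.455, so 0 of 10 passed, beside 0.564% of all genes, while 1 of 10 (Tek) and 14.1% of all genes had an unadjusted p under 0.05. Without WT replicate 4 and Pparg-/-epi replicate 8, the mice farthest from the median, r was 0.13 to 0.36. Within the Pparg-/-epi mice the median r was 0.78 (exact permutation p 0.00417 to 0.175, rho 0.66 to 0.94), with Sox17 at 0.91, and 0.62 without replicates 7 and 8. After adjustment over all genes this p was 0.261 to 0.424, and 0 of 10 passed, beside 0% of all genes. Before adjustment 4 of 10 and 15.7% of all genes were under 0.05 in these mice. Within the WT mice the median r was 0.22 (exact p 0.438 to 0.940, rho -0.09 to 0.26), and -0.79 without replicates 2 and 4. WT replicate 6 held the lowest endothelial CPM and ranked 4th by follicle keratins, while WT replicate 1 ranked 6th by endothelial genes and 11th by follicle keratins. With Col1a1 as a covariate of the genotype fit, Sox17 and Emcn stayed altered, whereas with the follicle keratins as the covariate 0 of 10 genes were (edgeR, 3 at an unadjusted p under 0.05), with Sox17 at log2 1.08 (adjusted p = 0.0734) and Emcn at 1.55 (0.0948). Relations with Col1a1, follicle keratins, RIN and total counts were computed, 4 in all, each over 12 mice and within each group.

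**Figure D3:**
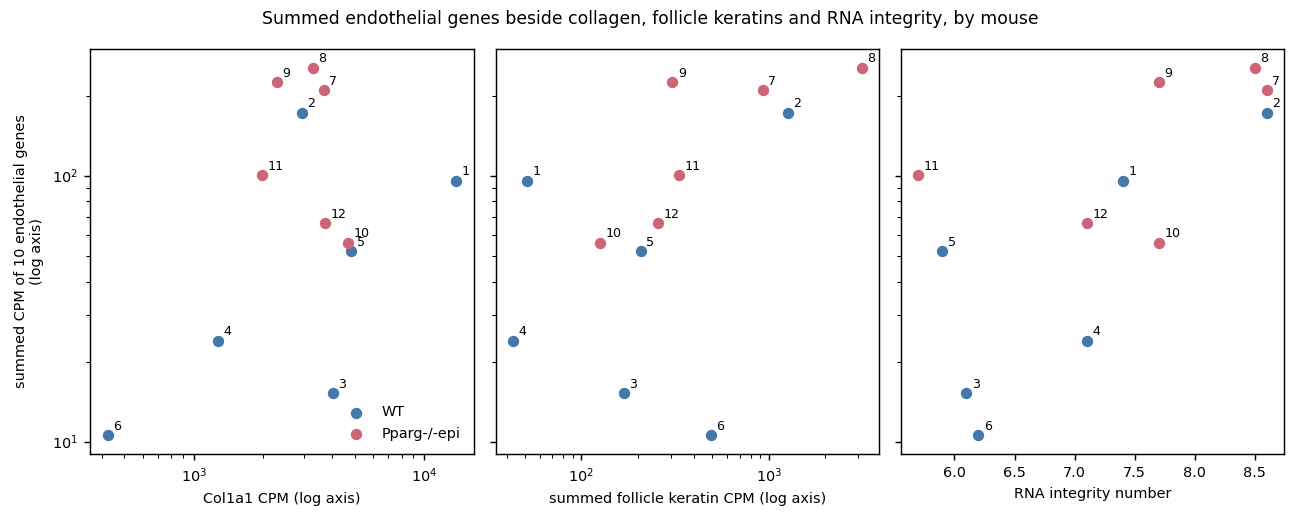
Summed CPM of the 10 endothelial genes (log axis) in each mouse against Col1a1 CPM (log axis), summed follicle keratin CPM (log axis) and RIN, with WT mice in blue, Pparg-/-epi mice in red and replicate numbers beside the points. WT replicate 6 lies lowest on both scales of the Col1a1 panel, and the 4 mice above 170 summed CPM have RIN of 7.7 or more. Pparg-/-epi replicate 10 also has RIN of 7.7, at 56.0 summed CPM.

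Among themselves the endothelial genes were tightly related. The 45 pairwise r of log2 CPM over the 12 mice ran from 0.85 (Cdh5 with Sox17) to 0.98, with a median of 0.95. These pairs share the same libraries, so r is given as a description. The genes outside the 10 whose pattern was most like their mean z-scored log2 CPM were Ecscr (r = 0.993), Cd93 (0.993), Egflam (0.991), Ednra (0.991), C130074G19Rik (0.988), Rgs5 (0.987), Podxl (0.985), Vwf (0.985), Esam (0.985) and Cd300lg (0.984), over 12 mice and 14533 genes. Ecscr, Cd93, Vwf (von Willebrand factor) and Esam were on the list of other pan-endothelial genes, Cd300lg on the list of capillary genes, and Rgs5 on the list of mural cells, where it marks pericytes. Rgs5 had 0 counts in WT replicate 3, which allows a level of up to 0.296 CPM (3 counts, counting error only), and 25.1 CPM in Pparg-/-epi replicate 9. In all, 458 genes outside the 10 had an r over 0.9, and Col1a1 ranked 4600th.

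Lists of genes differed in how close they lay to this pattern, as the plot of gene lists shows, and vessel and dermal lists overlapped. The median r was 0.95 for 30 other pan-endothelial genes, 0.93 for 7 genes of vessel basement membrane, 0.91 for 4 lymphatic genes, 0.84 for 12 mural genes, 0.83 for 11 ligands and co-receptors of the VEGF and angiopoietin receptors and 0.81 for 12 fibroblast genes, among which Col1a1 had the lowest r, 0.43. Other vessel lists lay below the fibroblast list, with 0.79 for 7 venous and adhesion genes, 0.78 for 6 capillary lipid genes, 0.76 for 12 Notch and arterial genes and 0.48 for 18 genes of the pathway of endoglin. The median r was 0.72 for adipocytes, 0.63 for blood cells, 0.55 for leukocytes, 0.45 for inner root sheath and companion layer keratins, 0.40 for hair shaft keratins, 0.34 for dermal papilla and follicle growth genes, 0.21 for skeletal muscle, 0.20 for nerve and Schwann cells and 0.01 for keratinocytes, beside -0.00 over all genes. Pparg had an r of 0.87 with the endothelial genes.

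**Figure D4:**
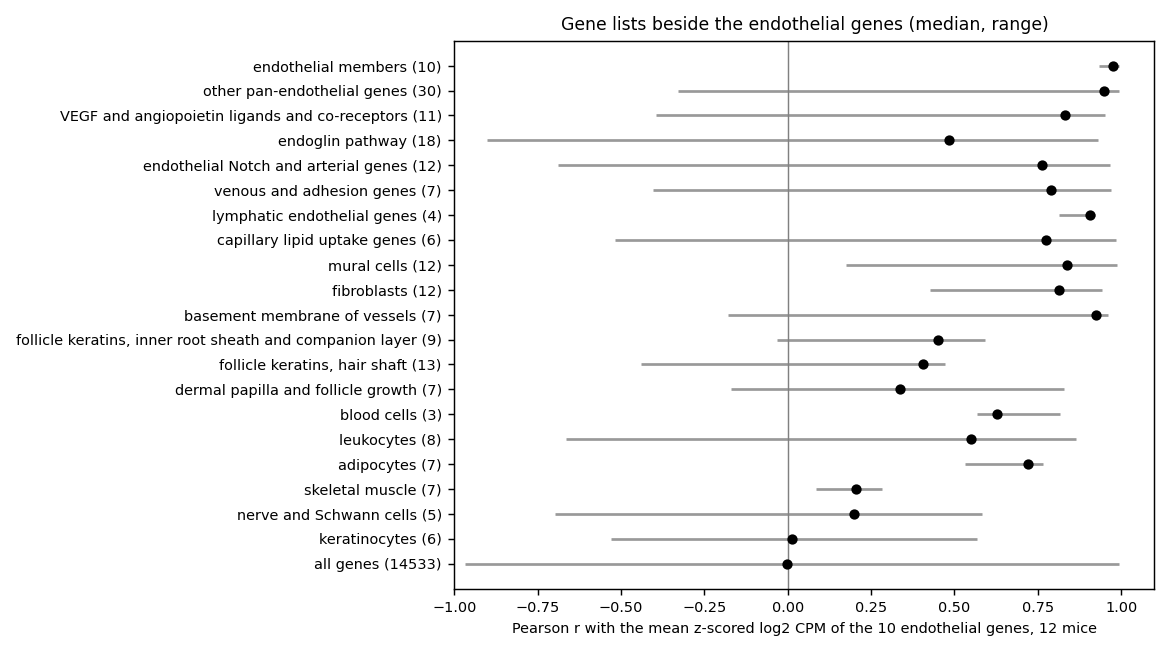
Median (point) and range (line) of Pearson r between each listed gene's log2 CPM and the mean z-scored log2 CPM of the 10 endothelial genes over 12 mice, by gene list with the number of genes. Pan-endothelial and basement membrane genes sit near 0.95 and 0.93, and keratinocyte genes and all genes near 0.

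Of the 30 other pan-endothelial genes 3 were altered and higher in Pparg-/-epi mice, beside the 10.3% of all genes altered in either direction. DESeq2 called 5 of the 30. The median log2 fold change of the 30 was 1.11, close to that of the 10. The 3 were Nos3 (endothelial nitric oxide synthase, log2 1.49, edgeR adjusted p = 0.0326), the ETS factor Erg (1.62, 0.0394) and Sox7 (2.46, 0.00876), a relative of Sox17. Sox7 differed from the endothelial genes in that its groups separated, with 2.66 to 45.6 CPM in WT and 66.9 to 118 CPM in Pparg-/-epi mice. The other most abundant genes of the list were not altered, Vwf at log2 1.30 (adjusted p = 0.143), Tspan7 at -0.07 (0.769) and Cd34, which dermal and follicle cells also make, at -0.32 (0.783).

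Of the ligands and co-receptors of the VEGF and angiopoietin receptors, 1 of 11 was altered. Like the counts of the lists that follow, this is to be read beside the 10.3% of all genes altered. The altered gene was Vegfa, the ligand of Kdr and Flt1, which keratinocytes also make. Vegfa was at 12.6 to 56.1 CPM in WT mice and at 89.3 to 124 CPM in Pparg-/-epi mice, without overlap, a log2 fold change of 1.77 (SE 0.26, edgeR adjusted p = 0.00109). WT replicate 2 again held the highest WT level. The other abundant genes of this list were not altered, Nrp1 at log2 0.34 (adjusted p = 0.557), Nrp2 at 0.41 (0.651) and Figf (Vegfd) at 0.05 (0.870). Of 18 genes of the TGF-β and BMP pathway in which endoglin acts, 1 was altered, the ligand Bmp4, with a log2 change of -1.12 (adjusted p = 0.00520). Its most abundant receptors and mediators were not altered, among them Bmpr2 (log2 -0.10) and Tgfbr2 (0.26).

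Of 12 Notch and arterial genes 0 were altered by edgeR or DESeq2 (2 at an unadjusted p under 0.05), with Notch1 at log2 0.23 (adjusted p = 0.220) and Jag2 at -0.23 (0.0711), the 2 most abundant apart from Nrarp. Of 7 venous and adhesion genes 1 was altered, Icam1 (log2 0.78, adjusted p = 0.00856), an adhesion molecule that keratinocytes and leukocytes also make. Of 6 capillary lipid genes 1 was altered, Fabp5 (0.83, adjusted p = 0.00262), a fatty acid carrier abundant in epidermis. Of the 4 lymphatic genes 0 were altered (adjusted p 0.548 or higher), nor were any of the 12 mural, 12 fibroblast or 7 basement membrane genes, by edgeR or DESeq2. At an unadjusted p under 0.05 there was 1 gene among these 4 lists, of the basement membrane.

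Of 43 markers of other tissues in the scrapings 4 were altered, 9.3%, near the 10.3% of all genes. Among blood cell genes 1 of 3 was altered, Itga2b, a platelet integrin (log2 1.38, adjusted p = 0.00153). Among leukocyte genes 1 of 8 was altered, Cd3e of T cells (-0.75, adjusted p = 0.0325). Among nerve and Schwann cell genes 1 of 5 was altered, Mbp (-0.63, adjusted p = 0.000501), and among keratinocyte genes 1 of 6, Krt14 (0.98, adjusted p = 0.00559). DESeq2 called 2 of these 6, Krt14 and Krt1, the latter at log2 1.02 by edgeR (adjusted p = 0.101). None of 7 adipocyte, 7 skeletal muscle or 7 dermal papilla and follicle growth genes was altered by edgeR's quasi-likelihood test or DESeq2, with 4 muscle genes at an unadjusted p under 0.05 and 2 altered by the likelihood ratio test. Skeletal muscle genes were highest in WT replicate 5, whose endothelial sum was the third highest of the WT mice.

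Because the endothelial level varied so widely, the genotype comparison was repeated with the mean log2 CPM of the 10 genes as a covariate, an alternative added after the values were seen. In that fit 10.9% of all genes were altered. Vegfa stayed higher in Pparg-/-epi mice at equal endothelial level (log2 1.46, edgeR adjusted p = 0.00295), as did Sox7 (1.78, 0.00742), Icam1 (0.72, 0.0382) and Fabp5 (0.73, 0.0133), whereas Nos3 and Erg did not pass. Of the 12 mural genes 6 fell at equal endothelial level, among them the smooth muscle genes Myh11 (log2 -2.003, adjusted p = 0.00164), Acta2 (-1.42, 0.0130) and Des (-3.21, 0.0201). The other 6 did not pass, among them the pericyte genes Rgs5 (-0.23, 0.567) and Pdgfrb (-0.25, 0.545), and Abcc9 (-1.83, 0.0517). Cspg4, which pericytes also make, was among the genes that fell (-0.79, 0.0384), so the list did not divide by type of mural cell. Of the 7 basement membrane genes 4 fell, among them the vessel collagens Col4a1 (-0.94, 0.0256) and Col4a2 (-0.93, 0.0319), and the lipase gene Lpl fell as well (-1.46, 0.0448). Falls were not particular to vessel lists. They were met by 4 of 5 nerve and Schwann cell genes (median log2 -1.31), 2 of 7 adipocyte genes (-1.77) and 1 of 12 fibroblast genes (-0.81). In each of these lists 0 genes were altered and higher. Pparg, which was not altered without the covariate (log2 -0.10, adjusted p = 0.949), fell by 1.34 (adjusted p = 0.00705). The covariate was itself higher in most Pparg-/-epi mice, so this fit compares genotypes along a measure that is partly shared with genotype.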

How the data were processed

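RNA of scraped epidermis from 12 mice was sequenced, with 1 library per mouse. The authors aligned reads with STAR (2.5.2b) to mm10, removed multi-mapped reads, and deposited counts per gene made with featureCounts (Subread 1.5.1), without normalization. The deposited counts list 14533 genes, each over 0.5 CPM in at least 6 mice, and 2800 blank rows were dropped. The 10 endothelial genes exceeded 0.5 CPM in 12 mice, or in 11 for Kdr and Emcn, so none was listed through the Pparg-/-epi group alone.

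Counts were scaled by TMM and compared by the quasi-likelihood test of edgeR (version 4.0.16 in R 4.3.3). The model held genotype alone, and p-values were adjusted over the whole table by the method of Benjamini and Hochberg. DESeq2 1.42.0, other scalings, filters, covariates and fits without single mice were alternatives. On simulated counts the fit was checked. Relations used log2 CPM with a prior count of 2 and permutation tests, exact within groups (720 pairings) and 100000 resamples over 12 mice, and left out the 2 mice farthest from the median of the x measure, each choice being tried where mice were tied. RPKM used the gene lengths of the table. Genes named were the 10, Col1a1, Pparg, the 4 most abundant and the altered genes of each list, and the 10 genes most like the endothelial pattern; some are covered only by counts, and other genes named were chosen after their values were seen. The members and lists were chosen with earlier results of these data known. Libraries were matched to mice by library numbers and mouse names. Some genes of the lists are not reported here by name.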

Additional observations from a re-analysis of the deposited data

Results flagged for a closer look

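Of 28 groups of 6 values examined, 4 held 1 mouse far from the others by Dixon's criterion. Chance meets it in about 1 of 20 groups when values are normally distributed and groups independent. These values were not on a log scale and the groups were related, so that rate does not apply and the 4 are a description. Flt1 was at 21.2 CPM in WT replicate 2, against 7.67 CPM in the next WT mouse. The follicle keratins were at 1257 summed CPM in the same mouse, against 490 in the next. Col1a1 was at 13798 CPM in WT replicate 1, against 4828 CPM in the next. The follicle keratins were at 3117 summed CPM in Pparg-/-epi replicate 8, against 929 in the next mouse of its group. The part of these mice in the differences was examined only through the fits without each mouse.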

How the results depend on the processing

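The count of altered endothelial genes, 2 of 10, was 0 to 4 when single mice were left out. It was 0 in females, in males, with follicle keratins as a covariate, at RIN of 7.0 or more, against WT mice outside name number 226, and with 10 or more counts in every mouse, a filter that left 5 of the 10 genes. It was 1 with sex as a covariate and 10 against the WT mice of number 226. Over all genes the count, 1493, was 1116 to 2249 without single mice, 651 in females, 18 in males, 502 at RIN of 7.0 or more, 389 outside number 226 and 2968 against it. Differences that changed sign were Col1a1 (log2 -0.72 to 0.27 over fits without single mice, the highest without WT replicate 1, 0.87 in females, 0.18 with sex as a covariate, 0.30 against number 226), in males Pecam1 (-0.14), Cdh5 (-0.70), Kdr (-0.63) and Tek (-0.037), and outside number 226 Cdh5 (-0.0025), Kdr (-0.26), Tek (-0.056), Tie1 (-0.11) and Eng (-0.092). The median r with Col1a1 was 0.73 with Col3a1 in its place and 0.050 to 0.54 without single mice, and that with follicle keratins was 0.38 to 0.67. The comparisons by RIN and by name number, the block included, were chosen after seeing the data, and the cause of these shifts was not tested. The groups share no replicate numbers. With name number as a block, 0 of 10 endothelial genes and 238 genes in all were altered, and the log2 differences of Pecam1 (-2.21), Cdh5 (-2.497), Egfl7 (-0.52), Sox17 (-0.17), Kdr (-2.63), Flt1 (-0.98), Tek (-2.198), Tie1 (-1.64), Emcn (-0.44), Eng (-1.33) and Col1a1 (0.66) changed sign. Depth limits the lowest values, of 5 to 16 counts in WT replicates 3 and 6 for Kdr.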
